A study of Mus musculus with 12 samples.

Results

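The comparison set CD244-positive against CD244-negative invariant natural killer T (iNKT) cells of the mouse thymus. It used the 6 thymus libraries, 3 of each kind, out of 12 libraries in the series, chosen by their labels and not by any measured value. The other 6 libraries hold the same pair of subsets from lung. Each library was made from 100 freshly sorted cells of mice aged 6 weeks. Every group shared the surface phenotype TCRbeta+, NK1.1+, CD1d tetramer+ and CXCR6+, and the groups differed in CD244 alone within a tissue. The series names the CD244-positive cells the C2 subset and the CD244-negative cells the C1 subset. The labels give no strain, genotype or treatment. The replicates are called independent library preparations, with no separate animals named, so the p-values reflect only how far these samples spread, and that spread may be technical.

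The iNKT lineage is made of T cells whose semi-invariant receptor recognises lipids presented by CD1d. These cells mature in the thymus, where they pass from early stages into effector types that resemble helper T cell classes, and the type that makes interferon gamma, NKT1, acquires NK1.1 and other receptors shared with natural killer (NK) cells. CD244, also called 2B4, is a receptor of the SLAM family that binds CD48 and is best known on NK cells and on cytotoxic T cells.

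Values are the deposited units, which are molecule counts scaled to 1 total per tissue, and molecules were recovered by dividing by the unit of 1 molecule in each library. The thymus CD244-positive libraries held 56615 to 71789 molecules and the CD244-negative libraries 60120 to 67478. Genes with a molecule numbered 7273 ± 218 and 7346 ± 185 (SD, n = 3). A count of 3 molecules stood for 1.12 to 1.42 units in the first group and 1.20 to 1.34 in the second, and such floors, like the counting intervals below, cover counting error only. Pairs of libraries of 1 group had a chi-square of 1.08 to 1.15 per degree of freedom and pairs across groups 1.33 to 1.58, while correlations of log2 values across genes overlapped, at 0.855 to 0.875 for the first and 0.839 to 0.865 for the second. The row of ribosomal RNA, Rn45s, took 7.54%, 6.47% and 7.15% of units in CD244-positive libraries 1, 2 and 3 against 5.95%, 6.50% and 5.82% in CD244-negative libraries 1, 2 and 3. Without that row the same 21 genes passed the test.

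The genes of the sort matched the labels where they could be seen. Cd244 was counted 8, 1 and 4 times among the CD244-positive libraries and 0 times in each CD244-negative one. With the CD244-negative group set at 3 molecules this is 4.39-fold higher, which leaves out the counting error of the CD244-positive molecules. Cd244 was too low to enter the test. Cxcr6, the chemokine receptor of the gate, had 11.6, 11.4 and 20.4 units against 17.1, 10.5 and 12.1, so the groups overlapped (log2 fold change 0.10 ± 0.40 SE, 95% interval -0.72 to 0.92). Klrb1c, which encodes NK1.1, had 23.9, 24.0 and 23.4 units against 23.4, 17.4 and 21.2 (log2 fold change 0.20 ± 0.24, 95% interval -0.27 to 0.68). The T cell receptor constant genes Trac, Trbc1 and Trbc2 were not among the gene symbols of the deposited values, so they could not be analysed.

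In thymus, 17 genes rose in CD244-positive cells, 0.331% of the 5138 tested, and 4 fell, 0.0779%. Those that rose included S100 calcium-binding protein genes, vimentin and other cytoskeletal genes, the granzyme Gzma, the chemokine Ccl5, receptors of the NK type the transcription factors Klf2 and Sp4, and Cd7, Ifngr1 and Ifitm2. The 4 that fell were Lef1, Izumo1r and Icos, which are on the list of NKT2 markers, and the surface protein gene Ly6a. A gene passed at an adjusted p under 0.05, from limma with Benjamini-Hochberg adjustment over all tested genes, and fold changes are differences of log2(value + 1), which understate the change of genes with low values. The median log2 fold change of all tested genes was -0.02, with 45.6% of them above 0 and the central 95% between -0.80 and 0.77. At an unadjusted p under 0.05 there were 150 higher genes (2.92%) and 155 lower (3.02%), 305 in all (5.94%). All 3 CD244-positive libraries lay above all 3 CD244-negative libraries for 281 genes (5.47%) and below for 330 (6.42%), together 611 (11.9%). Each of the 21 called genes (0.409%) had groups that did not overlap.

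**Figure D1:**
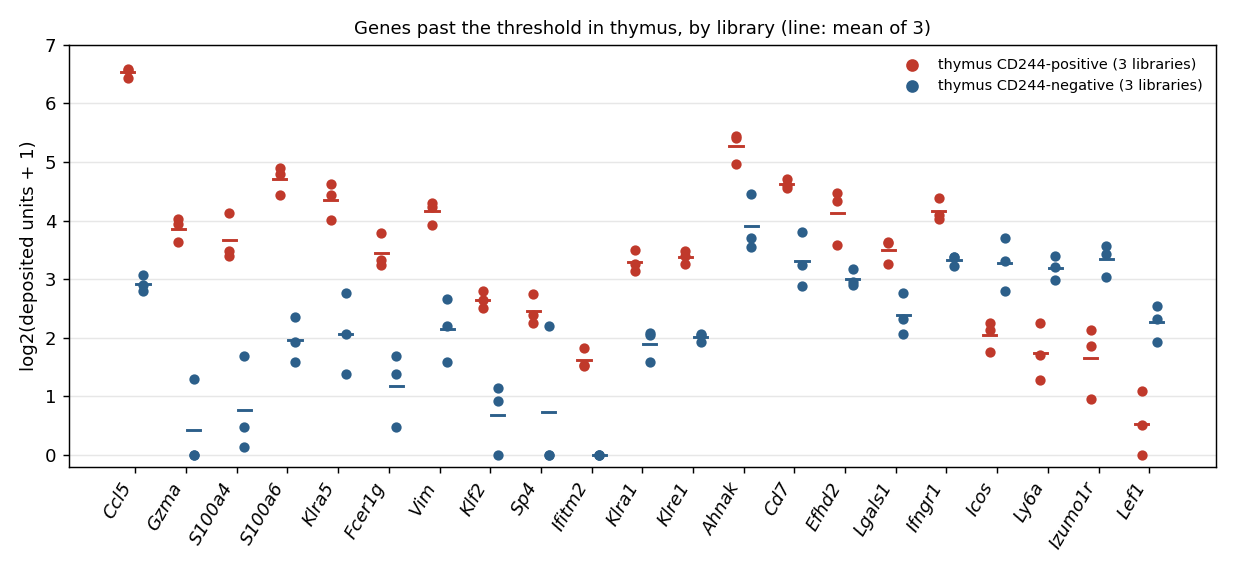
Values of the 21 genes past the threshold in each thymus library, as log2(deposited units + 1) on the vertical axis, with red points for the 3 CD244-positive libraries, blue points for the 3 CD244-negative libraries and a line at each group mean. Ccl5 has the widest gap between the groups, and the 4 genes at the right are those with the CD244-negative libraries on top.

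**Figure D2:**
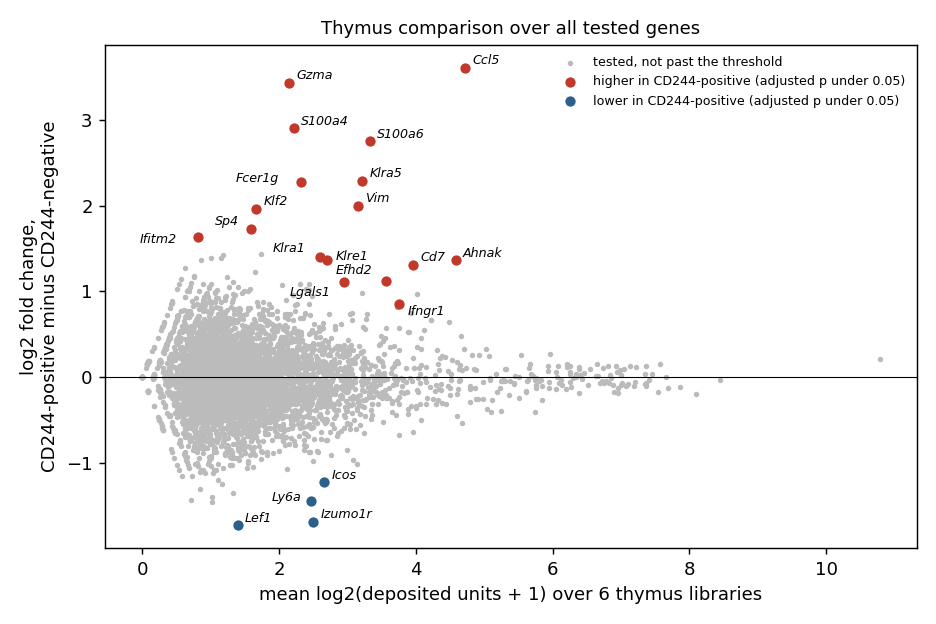
The log2 fold change of each of the 5138 tested genes (vertical axis, CD244-positive minus CD244-negative) against its mean log2(deposited units + 1) over the 6 thymus libraries (horizontal axis). Red points mark the 17 genes that rose and blue points the 4 that fell, and most other genes lie near 0.

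Calcium-binding and cytoskeletal genes made up the group with the most members that rose. S100a6, a calcium-binding protein gene, had 20.6, 28.8 and 26.7 units in CD244-positive libraries 1, 2 and 3 against 2.79, 2.01 and 4.14 in CD244-negative libraries. The lowest CD244-positive library was far above the highest CD244-negative one. Its log2 fold change was 2.75 ± 0.29 (SE, adjusted p = 2.34e-11), and 8.64 times as large a share of molecules was counted (95% counting interval 5.48 to 14.3). S100a4, its neighbour on chromosome 3 and a protein of motile cells, had 16.6, 10.2 and 9.5 units against 0.10, 0.40 and 2.24 (2.90 ± 0.38, adjusted p = 3.91e-08). The genes lie at 90612882 to 90624181 and 90603771 to 90606045 of build mm10. Library 1 was highest among the CD244-positive and library 3 among the CD244-negative samples, without overlap. The rest of the tested S100 genes did not pass: S100a10 had a log2 fold change of 0.09, S100a11 of -0.31 and S100a13 of -0.12. The 5 tested members of the family thus had a median of 0.09, and the other 8 of the 13 listed were at 0 in every thymus library.

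Vim, the intermediate filament gene vimentin (chromosome 2, 13573927 to 13582826), had 18.7, 17.8 and 14.2 units against 3.59, 2.01 and 5.37, so the groups were well apart (2.0 ± 0.28, adjusted p = 3.88e-07). Ahnak, a very large scaffold protein gene (chromosome 19, 8989284 to 9076914), had 41.3, 30.1 and 42.3 units against 12, 21 and 10.7. CD244-negative library 2 came nearest to the CD244-positive group (1.36 ± 0.20, adjusted p = 1.92e-06). Efhd2, an actin-binding protein with EF hands, had 19.1, 21.2 and 10.9 units against 6.78, 6.43 and 8.05 (1.12 ± 0.28, adjusted p = 0.0305). CD244-positive library 3 was the lowest of its group, and without it Efhd2 still passed, as it did in no other fit that left out 1 thymus library (adjusted p = 0.191, 0.178, 0.0714, 0.311 and 0.498 without CD244-negative library 1, 2 or 3 or CD244-positive library 1 or 2). Lgals1, the gene of the sugar-binding galectin-1, had 11.2, 11.4 and 8.55 units against 3.19, 4.02 and 5.82 (1.11 ± 0.28, adjusted p = 0.0374). It passed without CD244-negative library 3 and missed the threshold without any 1 of the other 5 (largest adjusted p = 0.538, without CD244-negative library 1).

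The list of vimentin, Ahnak, galectin, annexin and related genes had 16 tested members, of which those 4 rose and 0 fell, beside 0.331% and 0.0779% of all tested genes. Its median log2 fold change was 0.68 beside -0.02 over all genes. For 9 of the 16 the CD244-positive libraries lay above the others, and for 0 below, beside 5.47% and 6.42% of all tested genes. The list, like the others, was chosen with earlier results of these data known, so its counts and median describe it and test nothing. The list summed to 56.9, 53.6 and 55.6 molecules per 10000 in the CD244-positive libraries against 21.6, 30.7 and 27.8. Members that did not pass but did not overlap were the actin crosslinker Flna (1.09 ± 0.33), the LIM-domain gene Crip1 (0.75 ± 0.23), the actin-capping Capg (0.94 ± 0.37) and the annexin Anxa2 (0.77 ± 0.35). Anxa1, another annexin, had a log2 fold change of 0.06. In contrast, the 24 tested genes of the actin machinery itself had a median of -0.02 and 0 calls, and Actb was at 182, 208 and 216 units against 199, 197 and 207.

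Klf2 is a zinc-finger factor that keeps mature T cells in circulation by driving the sphingosine receptor gene S1pr1, and it rose in CD244-positive cells. It had 4.68, 5.93 and 5.22 units against 0, 1.21 and 0.89 (1.96 ± 0.36, adjusted p = 2.08e-04), in counts 37.5 against 5 molecules over the group. Every CD244-positive library was several times above the highest CD244-negative one. S1pr1 itself had 1, 6 and 1 molecules against 0, 0 and 1 and did not pass (0.77 ± 0.40, adjusted p = 0.862). Itga4, an integrin chain of lymphocyte homing, had 3.00, 5.51 and 0.95 units against 0, 0.40 and 0.89 (1.42 ± 0.41, adjusted p = 0.153). The tested egress and Klf genes numbered 10, of which 1 rose and 0 fell, beside 0.331% and 0.0779% of all tested genes. Of the 10, 9 were above 0, beside 45.6% of all tested genes, with a median of 0.32.

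For S100a6, S100a4, Vim and Klf2, which rose, and Lef1 and Izumo1r, which fell, the 250 bases before their RefSeq start sites are shown. A shared control of these genes was not tested. KLF proteins, as a class, bind the CACCC box. RefSeq (GRCm38.p6, the patch release of mm10) gave a promoter for 14 of the 17 higher and 2 of the 4 lower genes. CACCC or its reverse complement GGGTG, in capitals, occurred in 9 of those 14 and in both of the 2, beside 51.3% of all 27025 promoters of this length. S100a6 (chr3:90612644-90612893, plus strand) holds 0 matches, S100a4 (chr3:90603520-90603769, plus strand) 2, Vim (chr2:13574061-13574310, plus strand) 2, Klf2 (chr8:72318812-72319061, plus strand) 1, Lef1 (chr3:131110047-131110296, plus strand) 3 and Izumo1r (chr9:14903768-14904017, minus strand) 2.
S100a6: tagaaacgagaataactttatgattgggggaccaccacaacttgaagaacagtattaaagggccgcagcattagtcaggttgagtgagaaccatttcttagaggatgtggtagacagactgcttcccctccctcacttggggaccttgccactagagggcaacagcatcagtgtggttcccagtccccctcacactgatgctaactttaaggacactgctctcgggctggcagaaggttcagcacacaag
S100a4: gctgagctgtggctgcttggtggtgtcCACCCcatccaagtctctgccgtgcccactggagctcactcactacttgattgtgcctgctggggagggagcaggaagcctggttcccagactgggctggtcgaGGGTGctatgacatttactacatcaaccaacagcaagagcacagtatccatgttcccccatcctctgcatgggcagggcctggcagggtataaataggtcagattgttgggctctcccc
Vim: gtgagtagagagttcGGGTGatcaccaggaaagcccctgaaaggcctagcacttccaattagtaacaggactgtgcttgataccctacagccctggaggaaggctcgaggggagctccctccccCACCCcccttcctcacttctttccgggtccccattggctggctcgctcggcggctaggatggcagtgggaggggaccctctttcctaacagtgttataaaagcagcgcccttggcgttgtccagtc
Klf2: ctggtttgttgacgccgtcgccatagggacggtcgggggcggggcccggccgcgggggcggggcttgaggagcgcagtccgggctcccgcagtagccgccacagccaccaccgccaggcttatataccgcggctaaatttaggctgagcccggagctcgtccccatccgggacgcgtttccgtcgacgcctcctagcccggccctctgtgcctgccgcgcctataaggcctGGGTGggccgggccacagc
Lef1: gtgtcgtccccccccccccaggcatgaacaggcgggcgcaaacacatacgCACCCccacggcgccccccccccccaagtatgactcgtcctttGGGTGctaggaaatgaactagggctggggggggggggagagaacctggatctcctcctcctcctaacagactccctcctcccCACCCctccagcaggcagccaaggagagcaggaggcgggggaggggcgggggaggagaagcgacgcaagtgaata
Izumo1r: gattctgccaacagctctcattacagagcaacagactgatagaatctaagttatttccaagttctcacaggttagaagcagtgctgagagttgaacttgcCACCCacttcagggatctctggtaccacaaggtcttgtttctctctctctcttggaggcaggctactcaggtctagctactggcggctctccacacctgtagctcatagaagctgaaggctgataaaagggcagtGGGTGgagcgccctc
The letters CTTTGA, a core bound by Lef1 and Tcf7 (either strand, 14.0% of promoters), and AGGTGTGA, a T-box factor binding sequence (either strand, 1.14%), were in 0 of the 14 and 0 of the 2. A match describes these letters only, and its absence speaks only for this window.

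Among cytotoxic genes the difference was largest for Gzma, the granule protease granzyme A (chromosome 13, 113093825 to 113100981). It had 14.3, 15.3 and 11.4 units against 0, 0 and 1.45, in counts 98.25 against 3.25 molecules, a 33.1-fold larger share (counting interval 11 to 163). The CD244-negative group thus held it in library 3 alone (3.43 ± 0.38, adjusted p = 9.92e-11). Gzma missed the threshold with a pseudocount of 5 (adjusted p = 0.0743) and in edgeR on 9 libraries (0.0616). Gzmb, granzyme B, had 23.2, 21.6 and 19.9 units against 12.4, 10.1 and 9.39 without overlap, but did not pass (0.97 ± 0.27, adjusted p = 0.120). It did pass with the stricter filter, a pseudocount of 5, sample weights and the thymus libraries alone, and in none of the other alternatives. Serpinb6b, a protease inhibitor gene, had 5.62, 8.90 and 5.46 units against 1.59, 2.01 and 5.37 (1.03 ± 0.30, adjusted p = 0.153).

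Of 15 tested cytotoxic granule and killing genes only Gzma passed in the fit of all 12 libraries, beside 0.409% of all tested genes. Their median log2 fold change was 0.08. Nkg7, a granule membrane protein gene of killer cells, was at 25.3 ± 2.68 against 23.9 ± 1.55 units (SD, n = 3; log2 fold change 0.08, 95% interval -0.34 to 0.50). Prf1, the pore-forming perforin, had 1, 0 and 2 molecules against 0, 0 and 1, too few molecules to show a difference. Unc13d and Stxbp2, which take part in granule release, had log2 fold changes of -1.01 ± 0.40 and -0.91 ± 0.39 and lay lower in every CD244-positive library, neither passing (adjusted p = 0.635 and 0.748).

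Ccl5, a chemokine that draws T cells and monocytes (chromosome 11, 83525778 to 83530518), was the most abundant of the 21 called genes. Its values were 85.5, 95.4 and 93.9 units against 5.98, 6.43 and 7.38, tight within each group (3.61 ± 0.34, adjusted p = 2.08e-04). That SE draws on all 12 libraries, and with the thymus libraries alone it was 0.16. In molecules the share was 13.8-fold larger (counting interval 10.2 to 18.8). It was the sole call among 8 tested chemokine and cytokine genes, whose median was 0.25, or 0.71 over the 7 tested when molecules were thinned to 1 depth. Ifng, interferon gamma, had 4, 3 and 3 molecules against 1, 0 and 0 (1.10 ± 0.40, adjusted p = 0.584). Xcl1, a chemokine for dendritic cells, had 9.36, 10.2 and 9.97 units against 7.57, 3.62 and 5.81 (0.75 ± 0.34, adjusted p = 0.804). Il4, the helper cytokine of NKT2 cells, had 1, 1 and 1 molecules against 3, 4 and 3 (-0.74 ± 0.39, adjusted p = 0.865). These did not overlap between groups. Of 7 tested chemokine receptor genes 0 passed, with a median of -0.17.

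Ly49 receptor genes, which encode lectin-like receptors for MHC class I on NK cells, had 2 members that rose. Klra5 had 23.5, 20.7 and 15.2 units against 3.19, 1.61 and 5.82 (2.29 ± 0.35, adjusted p = 3.95e-06). Klra1 had 7.80, 10.3 and 8.55 units against 1.99, 3.22 and 3.13 (1.40 ± 0.35, adjusted p = 0.0325), and lost its call with each of the 6 thymus libraries left out in turn (adjusted p from 0.0838 to 0.426). Neither gene's groups overlapped. Klra7 (1.44 ± 0.40, adjusted p = 0.114), Klra3 (0.84 ± 0.38, 0.780) and Klra9 (0.74 ± 0.34, 0.804) were not called. All 5 tested members were above 0, beside 45.6% of all tested genes, and 2 were called higher, beside 0.331%. Their median was 1.40, and the family summed to 20.6, 22.9 and 15.2 molecules per 10000 against 5.71, 5.36 and 9.51. Members are near-identical in sequence and lie together on chromosome 6, and of their nonzero values 57.1% were fractions of a molecule, where the figure for all tested genes was 5.23%. Values of single Ly49 genes are therefore uncertain.

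Among other receptors of the NK type, Klre1, a lectin-like receptor that pairs with Klri chains, rose. It had 8.62, 10.2 and 9.5 units against 3.19, 2.82 and 3.13, tight in both groups (1.37 ± 0.33, adjusted p = 0.0281). Leaving out each thymus library in turn ended the call every time (adjusted p from 0.0925 to 0.191). Klrc1, the inhibitory NKG2A receptor, had 13.1, 9.33 and 14.2 units against 6.77, 7.11 and 3.58 (0.98 ± 0.27, adjusted p = 0.116). Klrk1, the activating NKG2D receptor, had 17.2, 16.5 and 12.8 units against 11.2, 10.1 and 8.95 (0.57 ± 0.27, adjusted p = 0.810). The list had 10 tested members with 1 higher, 0 lower, 9 above 0 and a median of 0.52. Of all tested genes 0.331% were higher, 0.0779% lower and 45.6% above 0.

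Fcer1g, the signalling chain that couples several NK and Fc receptors to kinases, had 8.99, 8.48 and 12.8 units against 1.59, 0.40 and 2.24. The groups stood clear of each other (2.27 ± 0.36, adjusted p = 8.06e-06). The related adaptors did not pass: Tyrobp (DAP12) had 2, 4 and 1 molecules against 0, 2 and 0, and Hcst (DAP10) had 23.2, 18.7 and 21.4 units against 15.9, 18.5 and 19.2. Zap70, the kinase of the T cell receptor, had 4.87, 5.09 and 5.22 units against 11.6, 10.9 and 10.3, tight and apart, yet did not pass (-0.97 ± 0.30, adjusted p = 0.246). Of 12 tested adaptor and kinase genes 1 rose, and the median was -0.11.

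**Figure D3:**
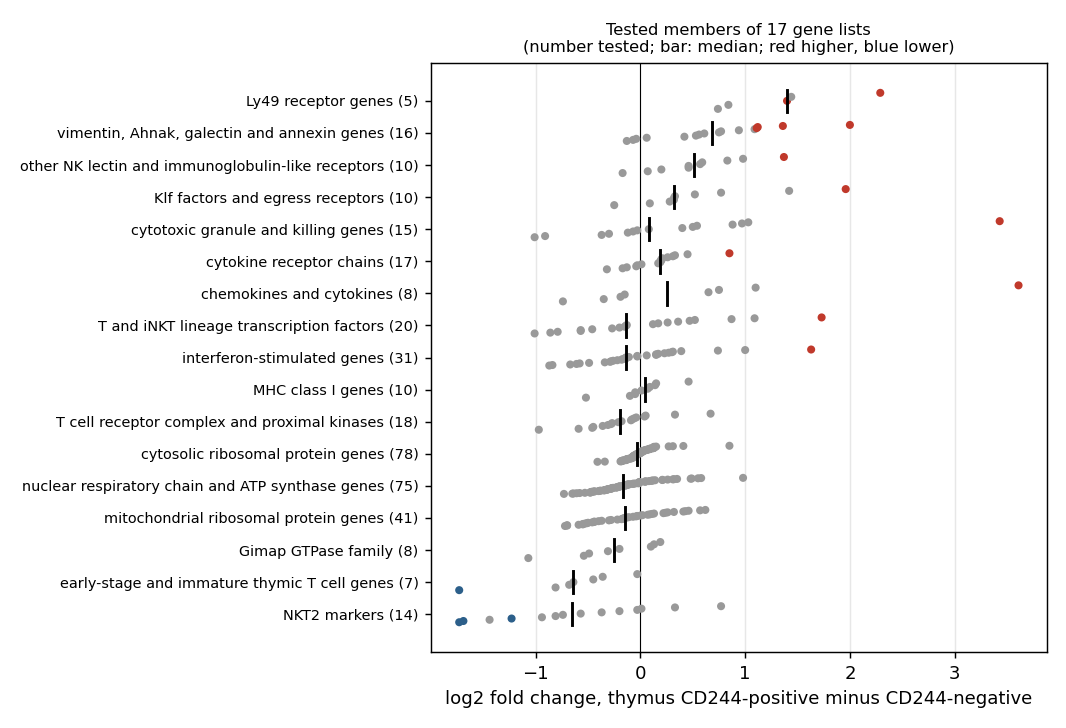
Log2 fold change (horizontal axis) of each tested member of 17 gene lists, with the number tested in brackets, a black bar at the list's median, red points for genes that rose and blue for genes that fell. Ly49 genes have the highest median (1.40) and NKT2 markers the lowest (-0.66).

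Of the genes that mark NKT2 and early thymic cells, 3 fell in CD244-positive cells and 0 rose. Lef1, a DNA-binding partner of beta-catenin in early T cells, had 1.12, 0.42 and 0 units against 2.79, 4.83 and 4.03, or 4 against 28 molecules (-1.73 ± 0.37, adjusted p = 5.86e-03). Izumo1r, the folate receptor 4 of helper-like T cells, had 2.62, 3.39 and 0.95 units against 7.17, 10.9 and 9.84 (-1.69 ± 0.38, adjusted p = 9.56e-03). Icos, a costimulatory receptor, had 3.75, 3.39 and 2.38 units against 5.98, 12.1 and 8.95 (-1.23 ± 0.28, adjusted p = 0.0141). In all 3 genes every CD244-positive library lay below every CD244-negative one. With CD244-positive library 3 left out, and likewise with CD244-negative library 2 left out, Lef1 (adjusted p = 0.162 and 0.117), Izumo1r (0.299 and 0.123) and Icos (0.188 and 0.336) missed the threshold, and without CD244-negative library 3 Izumo1r and Icos did (0.0786 for each).

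The NKT2 list had 14 tested members, of which Lef1, Izumo1r and Icos fell and 0 rose, with a median of -0.66 and 11 members below 0. Of all tested genes 0.0779% fell, 0.331% rose and 45.6% were above 0. For 7 of the 14 the CD244-negative libraries lay above the others, beside 6.42% of all tested genes. It summed to 11.3, 12.8 and 9.01 molecules per 10000 against 18.2, 23 and 18.5. Plac8 had 0 molecules in each CD244-positive library against 2, 3 and 9, and did not pass (adjusted p = 0.0864). With the CD244-positive group set at 3 molecules this is 4.6-fold fewer, which leaves out the counting error of the CD244-negative molecules. The counting interval of the ratio, CD244-positive over CD244-negative, was 0 to 0.306. Il17rb, the interleukin 25 receptor that marks NKT2 cells, had 0 against 1, 5 and 0 molecules and was too low to test. Gata3, the helper type 2 factor, had 8.24, 10.6 and 8.55 units against 12.4, 11.3 and 8.50 (-0.20 ± 0.30), and Zbtb16, the factor PLZF that founds the lineage, had 1.5, 2.12 and 1.90 against 4.78, 3.62 and 1.79 (-0.57 ± 0.39). Both overlapped.

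All 7 tested early-stage genes were below 0, with 1 call, Lef1, and a median of -0.64. Of all tested genes 45.6% were above 0 and 0.0779% were called lower. Tcf7 was at -0.03. For 2 of the 7 the CD244-negative libraries lay above the others, beside 6.42% of all tested genes. The whole list summed to 9.47, 11 and 11.1 molecules per 10000 against 18.6, 17.9 and 16.8. Satb1, a chromatin organiser of developing T cells, had 6.74, 12.7 and 10.4 units against 14.7, 16.1 and 17.4 (-0.68 ± 0.23, adjusted p = 0.424). Of the recombination genes of immature thymocytes, Rag1 and Rag2 were at 0 in every thymus library. Ly6a, the gene of the surface protein Sca-1, fell as well, with 3.75, 2.26 and 1.42 units against 6.91, 9.58 and 8.2 and no overlap (-1.45 ± 0.36, adjusted p = 0.0305). It passed without CD244-positive library 1 but missed the threshold without any 1 of the other 5 (largest adjusted p = 0.462, without CD244-positive library 3). Of its nonzero values 66.7% were not whole molecules. Its relative Ly6c2 had a log2 fold change of 0.64 ± 0.20 (adjusted p = 0.226).

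Cd7, a surface glycoprotein of T and NK cells and an NKT1 marker, went the other way. It had 25.1, 22.5 and 23.3 units against 6.38, 8.44 and 13 (1.31 ± 0.28, adjusted p = 4.68e-03). The CD244-positive libraries were close together, and the CD244-negative ones spread below them. Cd7 missed the threshold without CD244-negative library 1 (adjusted p = 0.189), CD244-positive library 1 (0.0568) or CD244-positive library 3 (0.0540). Of 23 tested NKT1 markers, Ccl5 and Cd7 rose and 0 fell, beside 0.331% and 0.0779% of all tested genes. The list had a median of 0.20 and sums of 174, 159 and 163 molecules per 10000 against 125, 118 and 118. Ccl5 made up 31.8, 35.5 and 34.9 of these against 2.22, 2.39 and 2.75, and without it the sums were 142, 123 and 128 against 123, 116 and 115. Tbx21, the T-bet factor of NKT1 cells, had 5.62, 4.66 and 4.75 units against 3.59, 4.42 and 4.03 (0.26 ± 0.40, 95% interval -0.53 to 1.05). Il2rb, the interleukin 15 receptor chain on which NKT1 cells depend, had 24.0, 17.8 and 20.4 against 24.7, 19.7 and 23.7 (-0.13 ± 0.22, 95% interval -0.56 to 0.30). Of 3 tested NKT17 markers 0 passed.

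**Figure D4:**
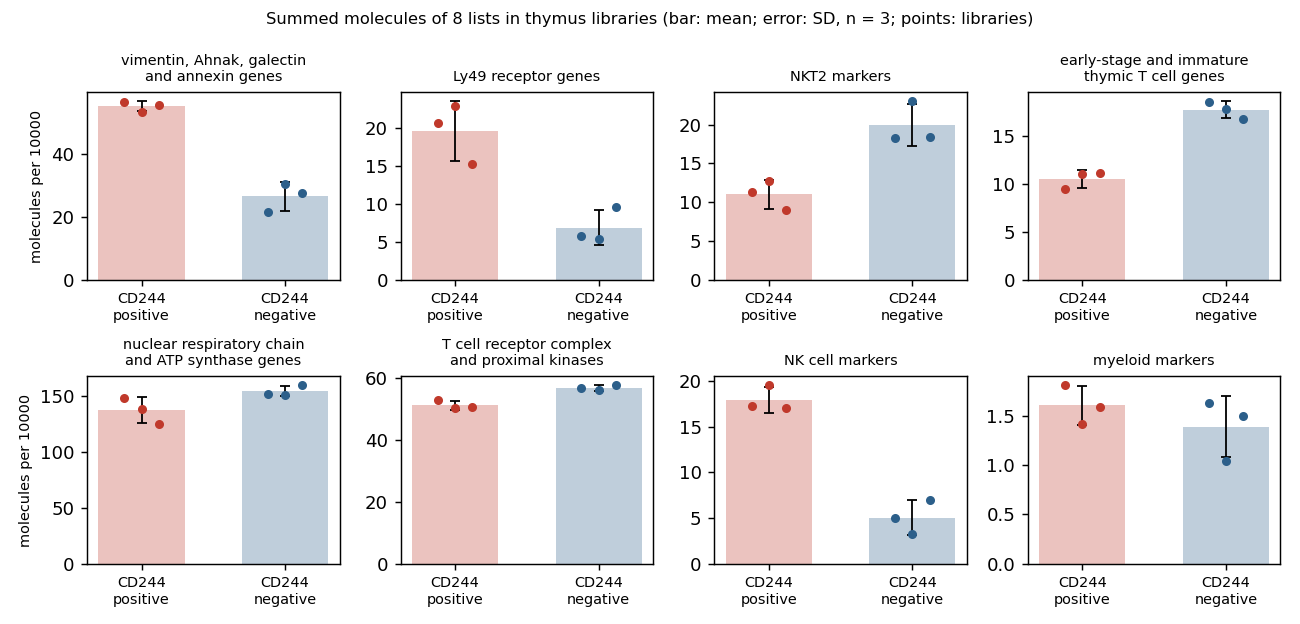
Summed molecules of 8 gene lists per 10000 molecules of a library (vertical axis, from 0), with bars for the mean of 3 thymus libraries, error bars for the SD and points for single libraries. The vimentin list stands at 55.4 ± 1.65 against 26.7 ± 4.62 and the NKT2 list at 11 ± 1.89 against 19.9 ± 2.71, while the myeloid sums overlap.

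Sp4, a zinc-finger factor of the Sp family, was the sole call among 20 tested lineage transcription factors, whose median was -0.14. It had 3.75, 4.24 and 5.70 units against 0, 0 and 3.58, so CD244-negative library 3 came close to the CD244-positive group (1.73 ± 0.41, adjusted p = 0.0205). It passed without CD244-negative library 3 but not without any 1 of the other 5 (adjusted p from 0.0530 to 0.547). Maf, a factor of helper-like and interleukin 17 producing cells, had 7.49, 2.54 and 7.12 units against 14.7, 11.7 and 8.95 (-1.01 ± 0.30, adjusted p = 0.195). Hopx, a small homeodomain protein of effector T cells, had 5.99, 7.21 and 7.60 units against 1.20, 3.22 and 4.47 (1.09 ± 0.37, adjusted p = 0.424). Neither overlapped between groups.

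Ifngr1, the ligand-binding chain of the interferon gamma receptor, rose with 19.9, 15.4 and 16.1 units against 8.37, 9.35 and 9.39 (0.85 ± 0.21, adjusted p = 0.0281). The CD244-negative libraries were tight, and all lay below. The call was lost whichever of the 6 thymus libraries was left out (adjusted p from 0.0704 to 0.311). It was 1 call among 17 tested cytokine receptor chains, beside 0.409% of all tested genes, and the median of the chains was 0.19. Ifitm2, an interferon-induced protein that blocks virus entry at membranes, had 5, 6 and 4 molecules against 0 in each CD244-negative library. With the CD244-negative group set at 3 molecules this is 5.07-fold more, which leaves out the counting error of the CD244-positive molecules. The counting interval of the ratio began at 3.64. Ifitm2 passed (adjusted p = 0.0213) but lost its call with each of the 6 left out (adjusted p from 0.0734 to 0.184). Its neighbours in the family were also low: Ifitm3 had 3, 3 and 3 molecules against 0, 0 and 1 and did not pass (adjusted p = 0.610), and Ifitm1 had 0, 2 and 5 against 0 and was not tested. The 31 tested interferon-stimulated genes had 1 call and a median of -0.14.

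Several lists had 0 calls. The 18 tested T cell receptor complex genes had a median of -0.20 and summed to 52.8, 50.0 and 50.4 molecules per 10000 against 56.5, 55.9 and 57.5. Cd3d, a chain of the complex, had 19.1, 15.3 and 15.2 units against 20.3, 15.3 and 16.1 (-0.06 ± 0.25, 95% interval -0.56 to 0.45). No gene passed among 24 immediate early genes (median -0.10), 10 MHC class I genes (0.04), 8 Gimap GTPase genes (-0.26), 15 proliferation genes (-0.19), 14 JAK and STAT pathway genes (-0.01), 9 integrin genes (0.33), 7 SLAM family genes (-0.19) or 78 cytosolic ribosomal protein genes (-0.03). Among them Itga1, the collagen-binding integrin chain, had 2.25, 2.54 and 3.09 units against 0, 0.80 and 0.45 (1.39 ± 0.40, adjusted p = 0.153). Egr1, an immediate early factor induced by receptor signals, had 1, 0 and 1 molecules against 2, 9 and 3 (-1.09 ± 0.40, adjusted p = 0.591). With 100 cells a library, fewer cells expressing a gene and less RNA per cell cannot be told apart.

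Markers of other cell types were measured in the same libraries. Of 20 myeloid markers 17 were at 0 in every thymus library, Lyz2 among them, and the list summed to 1.61 ± 0.20 against 1.39 ± 0.31 molecules per 10000 (SD, n = 3). Of the B cell list 11 of 13 measured genes were at 0. Cd8a had 1 molecule in 1 library, and the double-positive thymocyte list summed to 1.32 ± 0.40 against 1.78 ± 0.20. NK cell markers moved with the comparison: 6 were tested and 3 of them rose (Gzma, Fcer1g and Klre1, each also on a list above), beside 0.331% of all tested genes. Their median was 1.06, and the sums of the list were 17.3, 19.6 and 17 per 10000 against 5.04, 3.21 and 6.94. Of the 13 listed, Ncr1, S1pr5 and Kit were at 0 in all 6 libraries, and Eomes had 1 molecule in 1 CD244-positive library and 0 in the others. The part of NK cells in the result was not tested.

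The lung libraries, which were scaled to another total than those of thymus, allowed the same contrast, with an interaction test of whether the difference itself differed between tissues. They held fewer molecules than those of thymus, 42520 to 51436 in CD244-positive and 29696 to 32196 in CD244-negative libraries. The part of depth in the tissue differences was not tested. Of the 21 thymus calls, 19 had a lung fold change of the same sign and 16 were also called in lung, where 288 genes (5.61%) rose and 145 (2.82%) fell. Beside these lung values, the myeloid list summed to 73.7 to 143 molecules per 10000 in lung CD244-positive libraries against 1.01 to 1.71 in lung CD244-negative ones, and the B cell and MHC class II list to 49.9 to 129 against 0.621 to 0.674. The part of those cells' RNA in the lung fold changes was not tested. Over all genes, 168 (3.27%) passed the interaction test, 4 of them among the 21.

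Vim differed by more in lung, with a log2 fold change of 4.27 ± 0.28 there and 2.0 ± 0.28 in thymus (interaction adjusted p = 2.77e-05). Ccl5 differed by more in thymus, at 3.61 ± 0.34 against 1.21 ± 0.34 in lung (interaction adjusted p = 0.0163). Ifngr1 was at 0.85 ± 0.21 in thymus and -0.35 ± 0.21 in lung (adjusted p = 5.69e-03), and Sp4 at 1.73 ± 0.41 and -0.24 ± 0.41 (adjusted p = 0.0344), and neither was called in lung. Genes not called in thymus also passed the interaction test. Klrc1 was at 0.98 ± 0.27 in thymus and -0.80 ± 0.27 in lung (adjusted p = 1.29e-03), the chemokine receptor Ccr2 at 0.26 ± 0.28 and -1.40 ± 0.28 (adjusted p = 4.54e-03) and Egr1 at -1.09 ± 0.40 and 2.28 ± 0.40 (adjusted p = 1.27e-05). For S100a6, S100a4, Gzma, Klra5, Fcer1g and Icos the difference between tissues did not pass (interaction adjusted p = 0.0954, 0.553, 0.818, 0.959, 0.710 and 0.245).

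**Figure D5:**
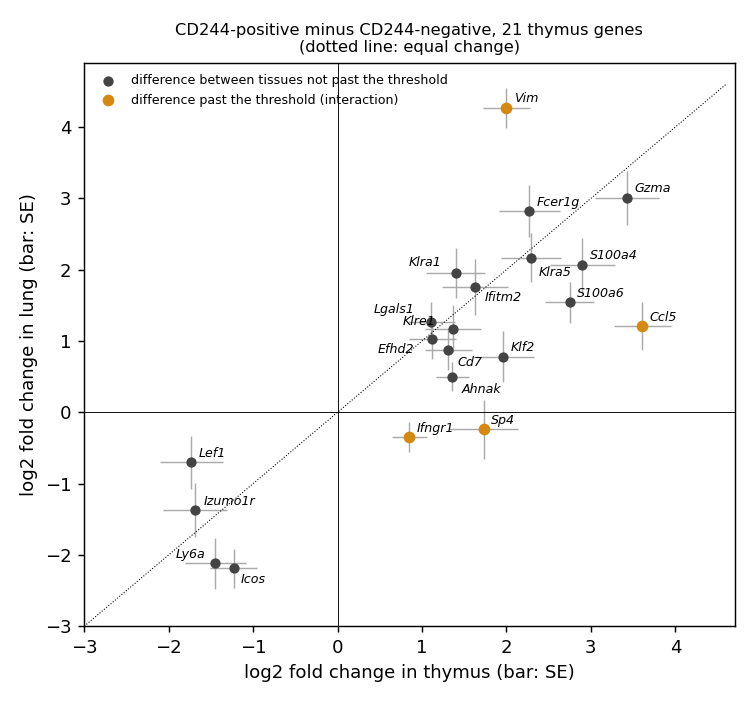
Log2 fold changes of the 21 thymus calls in thymus (horizontal axis) and in lung (vertical axis), each CD244-positive minus CD244-negative, with error bars for the SE and a dotted line where both are equal. Orange points mark Vim, Ccl5, Ifngr1 and Sp4, which passed the interaction test, and the other 17 did not.

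Each thymus library was left out in turn. The 9 genes that passed every time were Klf2, Ccl5, Fcer1g, Klra5, Ahnak, Vim, S100a4, Gzma and S100a6. Higher and lower genes then numbered 10 and 4, 10 and 3, and 11 and 0 with CD244-positive library 1, 2 and 3 left out, and 9 and 3, 10 and 0, and 14 and 1 with CD244-negative library 1, 2 and 3 left out. None or 1 of the lower genes was thus left without CD244-positive library 3, CD244-negative library 2 or CD244-negative library 3. Of the 9 genes that passed every time, DESeq2 (9 libraries, 4 of thymus) called Ccl5, Ahnak, Gzma and S100a6. It did not call Vim (adjusted p = 0.067), S100a4, Klra5, Fcer1g or Klf2. On the same libraries edgeR called all of the 9 genes but Gzma.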

How the data were processed

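RNA was measured in 12 libraries of 100 sorted cells. Per the labels, a molecular barcode sat in the oligo-dT primer of reverse transcription, and ERCC spike-in RNA was added. STAR and the build mm10 are named for the reads, per the submitters' processing notes. The STAR version, the counting, the gene annotation and how values were scaled are not given in the sources used here. The deposited table, made by the authors, holds a scaled signal per gene symbol (24781) and library, with each thymus column summing to 26890.5 units and each lung column to 19342.9.

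Between 94.3% and 94.6% of nonzero thymus values were whole multiples (tolerance 1e-06) of the column's most frequent value, which was taken as 1 molecule. The test was limma 3.58.1 in R 4.3.3 (trend, robust) on log2(value + 1) in 1 model of 4 groups over all 12 libraries, for genes over 1 unit in at least 3 of them. This kept 5138 genes, 104 of them with no molecule in thymus. P-values are two-sided, and an exact test of 3 against 3 cannot go below 0.1. Alternatives were quantile normalization, other filters and pseudocounts, sample weights, a replicate block, thymus libraries alone, thinned molecules, each thymus library left out, and edgeR 4.0.16 and DESeq2 1.42.0 on recovered molecules. Those 2 tools used the 9 libraries whose whole steps could be checked (4 of thymus). Leaving out the ribosomal RNA row was added after seeing the data. Simulated counts for all 12 libraries used the pooled gene shares of each tissue, 1 fixed spread and no CD244 difference in lung (5199 genes). Changes were set in thymus genes expected at 3 molecules or more. Of these, 13% of 2-fold and 68% of 4-fold changes were recovered, and 2 unchanged genes were called. The real lung groups differed, so recovery in the real fit may not be the same.

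The comparison and the 40 gene lists were chosen with earlier results of these data known. Named were the genes past the threshold, the sort genes, from each list at most 4 genes by smallest p and 2 by highest level, and the 10 genes that next missed the threshold. Flna, S100a13, Capg, Anxa1, Anxa2, Stxbp2, Tbx21, Zbtb16, Tcf7 and genes counted as too low to test were named after their values were seen. Lists are described by counts and medians. Positions came from GENCODE M21 and promoters from RefSeq.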

Additional observations from a re-analysis of the deposited data

Results flagged for a closer look

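The CD244 difference of 4 genes called in thymus was not the same in lung by the interaction test of limma (thymus effect minus lung effect, in log2 units). It was -2.27 for Vim, 1.20 for Ifngr1, 2.40 for Ccl5 and 1.97 for Sp4. In lung the myeloid markers summed to 73.7 to 143 molecules per 10000 in CD244-positive libraries against 1.01 to 1.71 in CD244-negative ones, and their part in these values was not tested.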

How the results depend on the processing

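No called gene changed the sign of its fold change under any alternative run. The 17 higher genes became 28 with the thymus libraries alone and 4 with DESeq2, and 9 to 14 with 1 thymus library left out. With the thymus libraries alone all 21 genes stayed called. Genes gained there included Gzmb, Klrc1, Klra7, Hopx, Itga1, Crip1, Ly6c2, Zap70, Maf and the ribosomal RNA row. The 4 lower genes became 7 with sample weights, 8 with the thymus libraries alone, 0 with edgeR (83 of 1153 genes at an unadjusted p under 0.05, and 12 higher) and 0 with DESeq2 (70 of 11485 at an unadjusted p under 0.05), and 0 to 4 with 1 library left out. Both count tools had 2 thymus libraries a group. The 168 genes past the interaction test became 104 with the stricter filter, which tested 922 genes. Correlations of deviations from the group mean were -0.010, -0.006 and -0.007 for same-numbered libraries and at most 0.007 for differently numbered ones. The spread within a group was near counting error, so these values cannot show whether replicate numbers pair the samples. With the replicate block 15 genes were higher and 4 lower, 18 of them among the 21, and 170 passed the interaction test. With quantile normalization, with thinned molecules and without the ribosomal RNA row, 1 of 27 lists with a median of at least 0.1 in size did not keep its sign, that of NKT17 markers (0.00 with thinned molecules). Thinning also moved the medians of the chemokine list to 0.71, of chemokine receptors to -0.04, of interferon-stimulated genes to -0.05, of adaptors to -0.07, of T cell receptor genes to -0.11, of immediate early genes to -0.18 and of SLAM genes to -0.32. Depth limits genes near 3 molecules a library, and the self-test recovered few 2-fold changes. The causes of these changes were not tested.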

Other observations

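Genes of mitochondria were measured as lists with 0 calls each. Of 75 tested nuclear genes of the respiratory chain and ATP synthase, 56 were below 0 in thymus, the median log2 fold change was -0.17, and the sums were 148, 138 and 125 molecules per 10000 in CD244-positive libraries against 152, 151 and 159. For 9 of them the CD244-negative libraries lay above the others, and for 0 below, beside 6.42% and 5.47% of all tested genes. Uqcrh, a complex III subunit gene, had 15, 12.7 and 12.3 units against 15.5, 18.1 and 17.9 (-0.34 ± 0.24, limma adjusted p = 1). Mitochondrial ribosomal protein genes had a median of -0.15 over 41 tested members and sums of 31.4, 27.3 and 34.9 against 38.4, 35 and 39.7, with 0 calls. The highest CD244-positive sum, 34.93, and the lowest CD244-negative sum, 34.99, were nearly equal. Proteasome genes had a median of 0.02 over 36.

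Bcl2a1b and Bcl2a1d, near-identical survival genes of the Bcl2 family, had log2 fold changes of -0.85 ± 0.32 and -0.79 ± 0.32 without overlap, and neither passed (limma adjusted p = 0.591 and 0.666). Most of their values were not whole molecules.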
